A study of Homo sapiens with 6 samples.

Results

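The genes described here are MYC, its partner MAX, and 6 genes for proteins that pair with MAX or work beside it: MXD3, MXD4, MXI1, MNT, MGA and MLX. They were picked by name, 8 of the 11844 genes in the deposited gene table, together with all 29 of their listed transcripts among 29964. The set was proposed because the deposited MYC level differed strongly between libraries of one group. The MYC values are therefore given as a description, without a test, and the other 7 genes were chosen by name. RNA was sequenced from C4-2B, a human line of prostate cancer cells descended from LNCaP. The control group (3 libraries, called the empty vector group) was a stable subline with pcDNA 3.1 alone. The other (3 libraries, called the LINC00888 group) stably carried pcDNA 3.1 with LINC00888, a long noncoding RNA. All 6 libraries thus came from cells with the same vector backbone and no other stated treatment, grown in RPMI1640 with 10% FBS. By the labels, LINC00888 measured by quantitative PCR was 15.27 ± 2.4 times the control level (SD, number of measurements not stated). Its sequencing level is not analysed here.

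MYC is a transcription factor that binds the E-box CACGTG as a pair with MAX and drives genes of ribosome assembly, growth metabolism and the cell cycle. MXD3, MXD4, MXI1 and MNT compete with MYC for MAX and recruit SIN3 corepressors, so MAX serves both activating and repressing pairs. MGA pairs with MAX inside a Polycomb complex named PRC1.6, and MLX pairs with the glucose-sensing factors MLXIP (MondoA) and MLXIPL (ChREBP) on a related element. In prostate cancer MYC is a well-known oncogene.

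Values are FPKM, fragments per kilobase of model and per mapped fragments of the library, so levels of different genes are on one per-length scale. The tables give no counts, the sequencing depth is unknown, and the summed gene FPKM ran from 211148 to 217637 per library. Whether replicate libraries came from separate cultures is not stated in the labels. The p-values therefore reflect only the scatter among these 6 libraries, which may be technical, and any other difference between the sublines cannot be told apart from the vector. Fewer cells of one state and less RNA per cell cannot be told apart in bulk RNA. The luminal prostate markers were all listed (10 of 10), with summed FPKM of 1378 to 1396 in the empty vector group and 1412 to 1432 in the LINC00888 group, 3 of them called higher and 4 lower. Of the markers of other cell types, 1 of 3 basal, 1 of 3 neuroendocrine, 2 of 3 fibroblast, 1 of 2 leukocyte and 1 of 2 endothelial genes were listed, and no list summed to more than 5.40 FPKM in a library. Across all genes the limma fit on log2(FPKM + 0.5) called 13.5% of 11726 tested genes at an adjusted p under 0.05 (Benjamini-Hochberg), 8.02% higher and 5.46% lower with LINC00888. The median log2 fold change of all tested genes was 0.03.

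Several results below turn on which transcript of a gene carried its signal, so the coding stretches that tell those transcripts apart are shown first. They were taken from GENCODE 29 (GRCh38) by transcript identifier, are written 5′ to 3′ in the sense of the gene, and are 60 coding bases each. For MAX (chromosome 14, minus strand) the capitals mark the 27 bases that MAX-205 holds and MAX-204 lacks, a change of 480 against 453 coding bases. They also mark where MAX-202 (402 coding bases) leaves the sequence of MAX-205 after 295 shared bases, which gives it another end. For MXI1 (chromosome 10, plus strand) the capitals in MXI1-201 and MXI1-202 mark bases of their different first exons, before the part they share. MXI1-203 and MXI1-204 start their coding sequence at one place further downstream, in an exon that MXI1-201 and MXI1-202 also hold. The capitals in MXI1-204 mark the 30 bases that MXI1-203 lacks, placed where the 2 sequences first differ, and MXI1-201 and MXI1-202 hold these bases too.
MAX-205 with the insert: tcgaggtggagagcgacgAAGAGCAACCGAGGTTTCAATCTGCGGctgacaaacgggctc
MAX-204 without the insert: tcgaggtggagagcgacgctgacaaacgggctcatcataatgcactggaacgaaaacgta
MAX-205 toward its end: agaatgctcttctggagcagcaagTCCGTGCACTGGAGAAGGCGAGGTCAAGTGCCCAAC
MAX-202 toward its end: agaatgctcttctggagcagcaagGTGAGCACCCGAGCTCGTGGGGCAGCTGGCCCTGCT
MXI1-201: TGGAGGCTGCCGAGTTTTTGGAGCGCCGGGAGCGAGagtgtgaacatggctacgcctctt
MXI1-202: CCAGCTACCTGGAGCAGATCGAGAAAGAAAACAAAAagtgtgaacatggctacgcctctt
MXI1-204 with the 30 bases: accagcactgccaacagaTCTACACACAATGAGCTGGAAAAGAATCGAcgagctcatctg
MXI1-203 without them: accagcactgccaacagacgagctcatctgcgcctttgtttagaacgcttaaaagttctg

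Promoters are shown for MXD4, the member that passed the test, and for TXNIP, a target of the MLX branch. Those of SRM and SLC7A5, a pair of MYC targets that fell and hold CACGTG, are shown too. The windows are the 250 bases before and 50 after the RefSeq gene start (GRCh38.p14), and all are on the minus strand. ODC1 and SLC3A2, MYC targets that also fell, lack CACGTG in this window and are not shown. Capitals mark CACGTG, which reads the same on both strands, and in TXNIP a pair of CACGAG motifs 5 bases apart, the form of carbohydrate response element described for TXNIP.
MXD4, chr4:2262060-2262359: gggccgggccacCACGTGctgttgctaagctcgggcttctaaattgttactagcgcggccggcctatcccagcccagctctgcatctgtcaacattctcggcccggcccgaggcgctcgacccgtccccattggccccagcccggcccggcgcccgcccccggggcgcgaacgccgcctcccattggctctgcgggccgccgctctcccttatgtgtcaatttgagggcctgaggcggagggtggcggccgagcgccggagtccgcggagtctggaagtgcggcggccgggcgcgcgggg
TXNIP, chr1:145996530-145996829: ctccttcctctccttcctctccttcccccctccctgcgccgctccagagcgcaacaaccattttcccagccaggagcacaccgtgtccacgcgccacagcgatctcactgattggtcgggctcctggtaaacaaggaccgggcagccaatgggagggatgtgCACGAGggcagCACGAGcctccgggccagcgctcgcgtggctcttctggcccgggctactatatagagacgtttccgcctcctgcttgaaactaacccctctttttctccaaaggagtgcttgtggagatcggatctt
SRM, chr1:11059969-11060268: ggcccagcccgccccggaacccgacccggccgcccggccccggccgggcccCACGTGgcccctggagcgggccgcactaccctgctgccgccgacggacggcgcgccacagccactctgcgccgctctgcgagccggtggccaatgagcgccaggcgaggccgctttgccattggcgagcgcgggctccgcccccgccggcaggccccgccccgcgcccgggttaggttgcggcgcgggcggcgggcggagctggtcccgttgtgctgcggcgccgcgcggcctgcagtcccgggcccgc
SLC7A5, chr16:87869458-87869757: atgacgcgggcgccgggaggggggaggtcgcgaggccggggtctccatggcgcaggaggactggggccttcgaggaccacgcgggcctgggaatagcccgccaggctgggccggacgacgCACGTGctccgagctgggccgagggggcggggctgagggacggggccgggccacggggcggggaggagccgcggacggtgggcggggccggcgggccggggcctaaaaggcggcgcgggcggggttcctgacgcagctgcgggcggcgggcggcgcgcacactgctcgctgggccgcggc
CACGTG stood in 7.43% of all 27305 RefSeq promoter windows. Among tested genes it stood in 10.9% of the 9162 windows matched, but these cover under 80% of 11720 gene names, so that share is void as a background. Of the 8 member genes 7 had a window, and 3 of these held it, MXD4 at -238, MNT at -193 and MLX at -50 relative to the start. The CACGAG pair, at -88 to -72 in TXNIP, was in 2 of all windows (0.00732%) on either strand. That pattern was read from the TXNIP promoter itself, so neither its presence there nor its rarity is a finding. A match says only that the letters are in the window, and a missing match says nothing of sequence outside it.

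MYC (ENSG00000136997.17_3, deposited position chromosome 8, 128747680 to 128753680, plus strand) had an FPKM of 48.3, 3.05 and 3.64 in empty vector libraries 1, 2 and 3. With LINC00888 its FPKM was 39.3, 3.76 and 3.95. The library numbered 1 in each group was therefore high and the other 4 were low, and the groups overlapped. The highest library stood 15.8 times above the lowest within the empty vector group and 10.4 times within the LINC00888 group. A ratio of at least 15.8 within a group was found in 50 tested genes, or 0.426%, while the median gene had a ratio of 1.18. MYC was chosen for this jump, so the share only describes it. In the 4 other libraries the mean MYC level was 3.34 FPKM with the empty vector and 3.86 FPKM with LINC00888.

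The MYC transcripts did not move alike between libraries. MYC-206, a model of 1365 bases in GENCODE 29 of which 1362 are coding (454 codons), had an FPKM of 75.5, 1.77 and 1.43 with the empty vector and 50.0, 1.59 and 1.48 with LINC00888. MYC-205, with a coding sequence of 453 codons from the same start, had 17.5, 1.13 and 1.62 against 20.9, 1.21 and 1.39 FPKM. Both were thus high in the libraries numbered 1, in both groups. MYC-202, whose coding sequence starts further downstream and holds 439 codons, was listed at 0 in both of those libraries and had 0.860 and 1.07 FPKM in the other empty vector libraries and 1.12 and 1.32 in the other LINC00888 libraries. MYC-204, an annotated fragment of 577 bases whose coding end is not complete, had 3.06, 2.47 and 4.16 against 3.13, 4.73 and 4.56 FPKM. It kept to a range of 2.47 to 4.73 FPKM while MYC-205 and MYC-206 jumped.

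The gene value followed the listed transcripts. Each transcript FPKM multiplied by its GENCODE 29 length and summed, then divided by the gene FPKM, gave 2696 to 2951 bases for MYC in all 6 libraries, so the gene and transcript tables hold the same jump. The share of MYC-206 in the summed transcript FPKM was 78.6%, 28.5% and 17.2% with the empty vector and 67.6%, 18.4% and 16.9% with LINC00888. The share of MYC-204 was 3.18%, 39.6% and 50.2% against 4.23%, 54.7% and 52.1%. MYC-206 thus made up most of the listed signal in the libraries numbered 1, and MYC-204 was the largest share in the other 4. The 4 listed transcripts are among 9 that GENCODE 29 annotates as protein coding for MYC, and the rest were not analysed here.

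**Figure D1:**
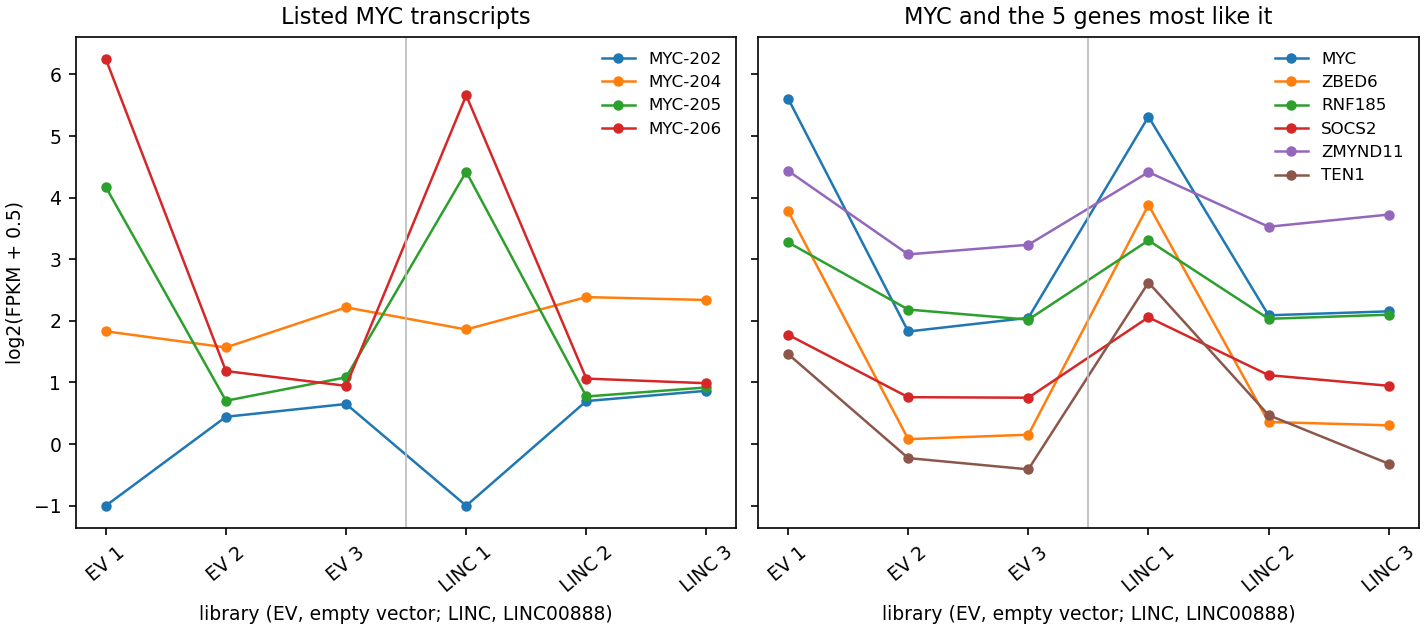
Left, log2(FPKM + 0.5) of the 4 listed MYC transcripts in each library, and right, the same for the gene MYC and the 5 genes with the highest Pearson correlation to it; EV is the empty vector group and LINC the LINC00888 group, and lines only join the points of 1 transcript or gene. MYC-205 and MYC-206 stood at 17.5 to 75.5 FPKM in the libraries numbered 1 and at 1.13 to 1.77 in the others, while MYC-202 was listed at 0 in the libraries numbered 1.

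Few genes had the pattern of MYC. Over the 6 libraries, 758 genes whose log2 values ranged over at least 1 were compared with MYC, and 5 had a Pearson correlation of at least 0.9. Since the 6 points form a high pair and a low group of 4, the correlation describes that split and carries no test. ZBED6, a transcription factor encoded inside the gene ZC3H11A, was closest (r = 0.997), with an FPKM of 13.3, 0.558 and 0.612 against 14.2, 0.782 and 0.736. ZBED6 shares its transcribed region with that host gene, so the split of reads between them is uncertain. RNF185, a ubiquitin ligase of the endoplasmic reticulum (r = 0.987), had 9.17, 4.04 and 3.56 against 9.39, 3.59 and 3.79 FPKM. SOCS2, a suppressor of cytokine signaling, followed with r = 0.953, ZMYND11, a reader of methylated histone H3.3, with 0.941, and TEN1, a subunit of the telomere CST complex, with 0.902. Only MYC and ZBED6 had both libraries numbered 1 at 5 or more times every other library.

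The MYC target lists did not follow the jump of MYC between libraries. The log2 difference between library 1 and the mean of libraries 2 and 3 was 3.67 for MYC in the empty vector group and 3.19 in the LINC00888 group. For 26 nucleolus and ribosome assembly targets the median of this difference was 0.00 in the empty vector group and 0.02 in the LINC00888 group. For 22 metabolic targets it was 0.02 and -0.01, for 15 cell cycle and translation targets -0.05 and -0.00, and for 13 genes that MYC is known to repress 0.00 and 0.03. The medians over all tested genes were 0.02 and 0.02, so the target lists lay within 0.1 of all genes while MYC itself moved by more than 3.

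MAX (ENSG00000125952.18_2, chromosome 14, 65472892 to 65569413, minus strand), the common partner, had an FPKM of 6.30, 12.8 and 6.95 with the empty vector and 6.60, 8.59 and 4.99 with LINC00888. Library 2 was the highest in each group and the groups overlapped. The log2 fold change was -0.31 ± 0.31 (SE; limma adjusted p = 0.557), so a difference was not resolved. The 27-base insert is held by MAX-205 and also by MAX-201, MAX-202 and MAX-219, while MAX-204 and MAX-218 lack it. MAX-205 had 6.38, 20.3 and 8.57 against 7.18, 3.78 and 5.36 FPKM. MAX-202, with the insert and the other end, had 1.55, 5.43 and 1.26 against 1.75, 7.18 and 1.61 FPKM. MAX-204, without the insert, had 3.47, 1.57 and 3.18 against 3.25, 1.80 and 2.17 FPKM. Both libraries numbered 2 were thus high for MAX-202 and low for MAX-204, while MAX-205 was highest in empty vector library 2 and lowest in LINC00888 library 2. The share of MAX-202 reached 43.9% in LINC00888 library 2 and was 7.74% to 17.6% in the other 5.

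MXD4 (ENSG00000123933.16_3, chromosome 4, 2249159 to 2264021, minus strand), a MAX partner that opposes MYC and is known from differentiating and resting cells, was the 1 member of 8 that passed the test. Its FPKM was 6.89, 6.90 and 6.88 with the empty vector and 8.39, 8.72 and 8.64 with LINC00888. Every LINC00888 library lay above every empty vector library. MXD4 rose from 6.89 ± 0.0128 to 8.58 ± 0.172 FPKM (SD, n = 3), a ratio of 1.25 and a log2 fold change of 0.30 ± 0.0419 (SE; limma adjusted p = 0.0110). Its 1 listed transcript, MXD4-201, had 10.7, 10.7 and 10.6 against 12.9, 13.6 and 13.3 FPKM and did not pass among transcripts (limma adjusted p = 0.190). The gene call held when any 1 library was left out (adjusted p 0.0346 to 0.0447), but not without both libraries numbered 1 (0.104), where 72 genes were called in all. The 1 of 8 members called is 12.5%, near the 13.5% of all tested genes.

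MNT (ENSG00000070444.14_2, chromosome 17, 2287354 to 2304412, minus strand), the antagonist found in most growing cells, had 3.76, 3.34 and 3.57 FPKM with the empty vector and 4.27, 3.98 and 3.73 with LINC00888. The lowest LINC00888 library lay below the highest empty vector library, and the log2 fold change was 0.15 ± 0.0709 (SE; limma adjusted p = 0.217). Its 1 listed transcript, MNT-201, ran from 5.26 to 6.09 FPKM over the 6 libraries, with overlapping groups.

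MXD3 (ENSG00000213347.10_3, chromosome 5, 176728462 to 176739758, minus strand), an antagonist known from dividing cells in S phase, had 5.07, 3.65 and 3.57 against 4.01, 4.15 and 5.03 FPKM. The groups overlapped (log2 fold change 0.10 ± 0.145, SE; limma adjusted p = 0.682). Its summed transcripts were 1.77 to 2.95 times the gene FPKM, and none of its transcripts passed the test. MXD3-203 had 9.09, 5.52 and 5.12 FPKM with the empty vector and 2.85, 1.91 and 3.15 with LINC00888. All LINC00888 libraries lay below all empty vector libraries, with a log2 fold change of -1.15 ± 0.279 (SE) that did not pass over all transcripts (limma adjusted p = 0.250). Its share of the summed MXD3 transcripts was 60.9%, 51.9% and 55.5% against 25.8%, 16.0% and 35.4%, or 56.1% ± 4.51 against 25.7% ± 9.72 (SD, n = 3). The exact permutation p of the share was 0.1, two-sided, the smallest that 3 against 3 allows. Adjusted over 27 shares it was 0.771, so this difference did not pass.

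MXD3-208 codes for the same 618 bases as MXD3-203 and differs from it outside the coding sequence. It had 0.0386, 1.36 and 0.0399 FPKM with the empty vector and 2.17, 4.38 and 0.0206 with LINC00888, so it was near 0 in 3 of the 6 libraries. The sum of MXD3-203 and MXD3-208 was 9.13, 6.89 and 5.16 FPKM against 5.01, 6.29 and 3.17, and here the groups overlapped (exact permutation test, two-sided p = 0.2). MXD3-204, a short annotated transcript with an incomplete coding end, had 1.49, 0.659 and 0.870 against 1.76, 1.87 and 1.71 FPKM. Its groups did not overlap, and it did not pass (limma adjusted p = 0.435).

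MXI1 (ENSG00000119950.20_4, chromosome 10, 111967363 to 112047123, plus strand), an antagonist that recruits SIN3, had 11.0, 11.0 and 7.78 FPKM with the empty vector and 14.2, 4.88 and 13.6 with LINC00888. LINC00888 library 2 was the lowest of the 6 and library 1 of that group the highest. The highest and lowest LINC00888 libraries differed 2.90-fold, a ratio reached within a group by 3.02% of tested genes. The log2 fold change was 0.01 ± 0.422 (SE; limma adjusted p = 0.995), and its sign changed with the library left out, from -0.25 to 0.48.

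Which MXI1 transcript held the signal differed between libraries. MXI1-201 had 16.0, 17.2 and 9.96 FPKM with the empty vector and 3.18, 2.27 and 20.7 with LINC00888. MXI1-203, which lacks the 30 bases shown above, had 0.988, 0 and 0 against 19.6, 0 and 0 FPKM. LINC00888 library 1 thus listed its MXI1 signal under MXI1-203 (67.8% of the summed transcripts), while LINC00888 library 3 listed 80.7% under MXI1-201, as did the empty vector libraries with 62.6% to 80.8%. MXI1-202, with the longest coding sequence of the listed MXI1 transcripts, had 2.09, 1.88 and 2.23 against 3.45, 4.45 and 2.75 FPKM. Its groups did not overlap, with a log2 fold change of 0.64 ± 0.199 (SE; limma adjusted p = 0.347). In LINC00888 library 2, where MXI1-201 was low and MXI1-203 was listed at 0, MXI1-202 made up 58.2% of the sum.

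**Figure D2:**
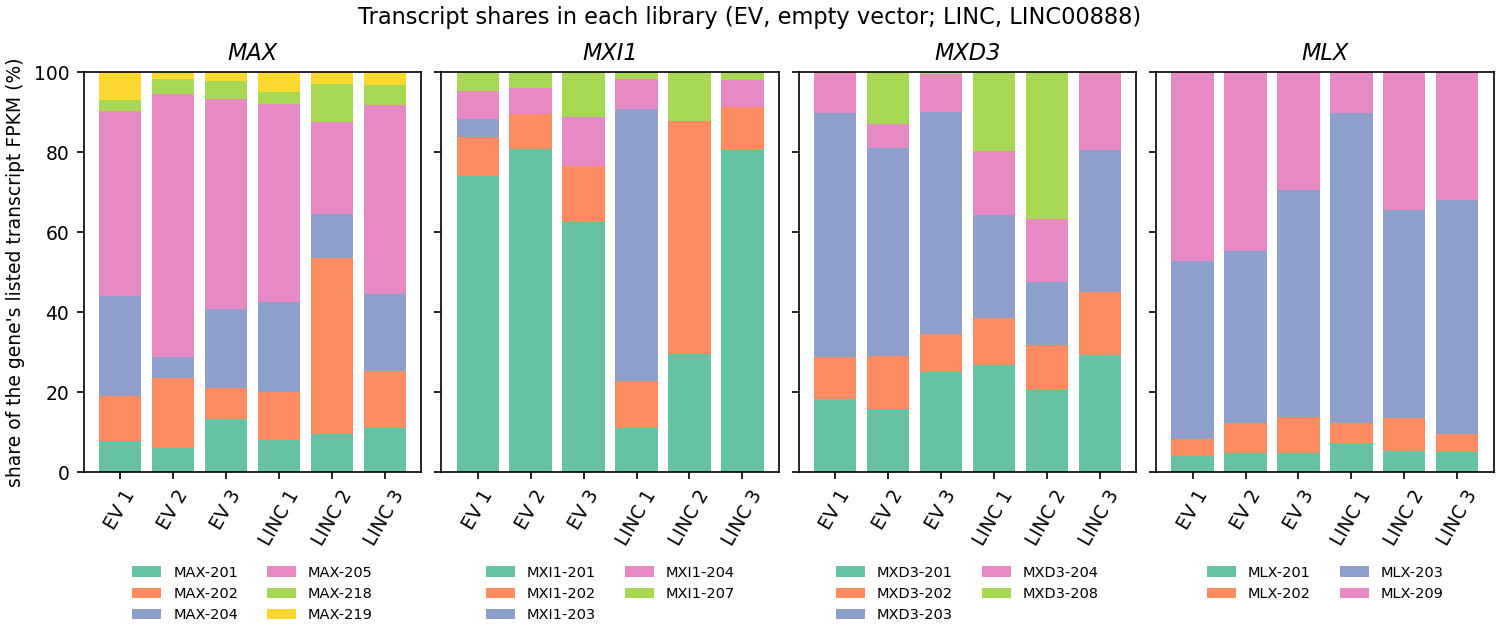
Share of each listed transcript in the summed transcript FPKM of its gene, in percent, for MAX, MXI1, MXD3 and MLX, with 1 stacked bar per library; EV is the empty vector group and LINC the LINC00888 group. MXI1-203 took 67.8% in LINC00888 library 1 and 0 in 4 libraries, and MXD3-203 took 51.9% to 60.9% in the empty vector libraries and 16.0% to 35.4% in the LINC00888 libraries.

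The antagonists together were compared with MYC on the per-length scale. The summed FPKM of MXD3, MXD4, MXI1 and MNT was 26.8, 24.9 and 21.8 with the empty vector and 30.8, 21.7 and 31.0 with LINC00888. The group means were 24.5 ± 2.51 and 27.9 ± 5.30 (SD, n = 3), a difference of 3.36 that was not resolved (exact permutation test, two-sided p = 0.4). MYC divided by this sum was 1.80, 0.122 and 0.167 in the empty vector libraries. With LINC00888 the same ratio was 1.27, 0.173 and 0.128, so MYC exceeded the antagonist sum only in the libraries numbered 1.

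MGA (ENSG00000174197.16_1, chromosome 15, 41913422 to 42065279, plus strand), the MAX partner of PRC1.6, had 3.13, 2.64 and 2.78 FPKM with the empty vector and 4.06, 3.41 and 3.36 with LINC00888. Every LINC00888 library was higher, from 2.85 ± 0.254 to 3.61 ± 0.389 FPKM (SD, n = 3), but the gene did not pass (log2 fold change 0.29 ± 0.0932, SE; limma adjusted p = 0.0899). MXD4 and MGA were the 2 of 8 members whose groups did not overlap, beside 38.3% of all tested genes. MGA-211, with 9195 coding bases, had 1.34, 3.28 and 3.58 against 1.25, 2.21 and 4.69 FPKM. MGA-202 lacks 627 of those bases and had 0.922, 0 and 0 against 4.23, 2.28 and 0 FPKM. MGA-207, which codes for the same 8568 bases as MGA-202, ran from 0.000298 to 1.25 FPKM. Library 3 of each group thus listed nearly all its MGA signal under MGA-211, and library 1 divided it.

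MLX (ENSG00000108788.11_2, chromosome 17, 40719086 to 40725257, plus strand), the partner of the glucose-sensing factors, had 21.8, 21.7 and 30.4 FPKM with the empty vector and 26.8, 25.8 and 18.2 with LINC00888. Library 3 was the highest of its group with the empty vector and the lowest with LINC00888, and the log2 fold change was -0.06 ± 0.199 (SE; limma adjusted p = 0.862). Its sign also changed with the library left out, from -0.16 to 0.11. MLX-203, which codes for 244 codons, had 12.1, 11.2 and 25.8 against 24.9, 18.6 and 12.7 FPKM. MLX-209, an annotated transcript with an incomplete coding end, had 12.8, 11.7 and 13.4 against 3.28, 12.3 and 6.95 FPKM. The remaining MLX transcripts, MLX-201 and MLX-202, stayed between 0.976 and 4.08 FPKM.

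**Figure D3:**
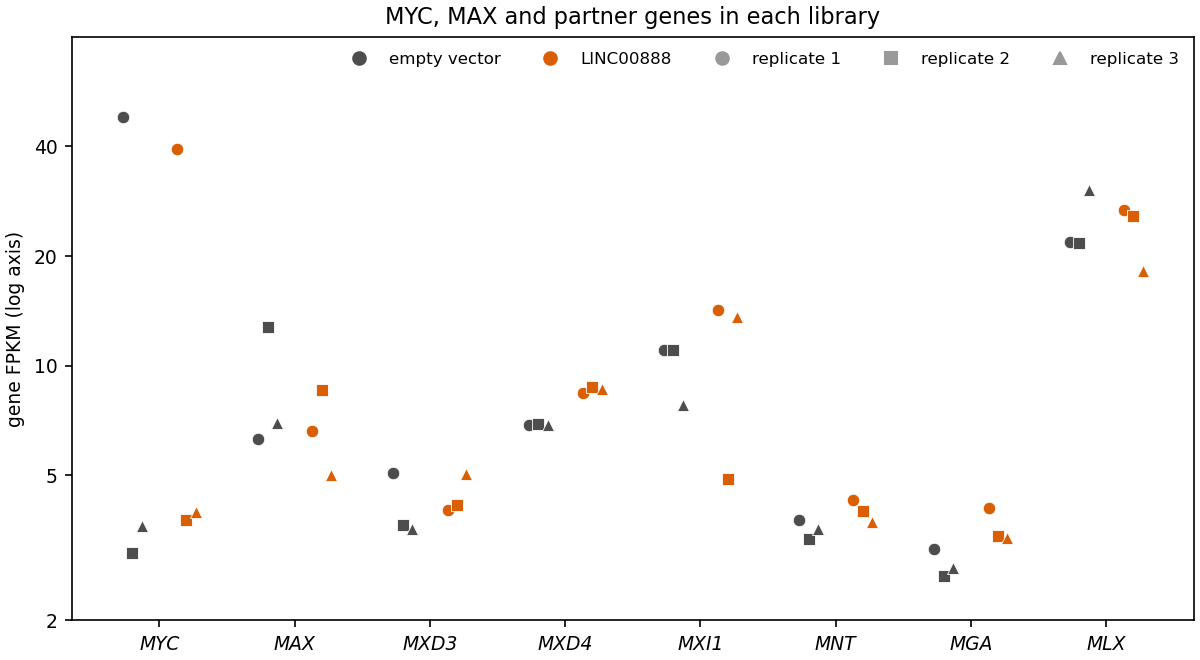
Gene FPKM of the 8 members on a log axis, with 1 point per library; color marks the group and shape the library number. MYC was at 39.3 to 48.3 FPKM in the libraries numbered 1 and at 3.05 to 3.95 in the other 4, while MXD4 rose from 6.88 to 6.90 FPKM in the empty vector libraries to 8.39 to 8.72 in the LINC00888 libraries.

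By the mean over the 6 libraries the order of levels was MLX (24.1 FPKM), MYC (17.0), MXI1 (10.4), MXD4 (7.74), MAX (7.70), MXD3 (4.25), MNT (3.77) and MGA (3.23). MLX lay above MXI1 in every library, while the ranges of MXI1, MXD4 and MAX overlapped, as did those of MXD3, MNT and MGA. The place of MYC was set by the libraries numbered 1: in the other 4 it lay within 3.05 to 3.95 FPKM, among the values of MNT and MGA.

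Among the transcripts, 26 of 29 passed the filter on low values and 0 were called by limma, beside 0.379% of all 26941 tested transcripts (0.167% higher and 0.212% lower). At an unadjusted p under 0.05 the count was 4 of 26, beside 11.1% of all tested transcripts, namely MXD4-201, MXD3-203, MXI1-202 and MXD3-204. The same 4 transcripts had groups that did not overlap, 15.4% of the 26 tested, beside 19.9% of all tested transcripts. MAX-219, MXI1-203 and MGA-207 did not pass the filter.

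The rest of the network and the genes around it were taken from lists written with results of these data already known, so their counts are read beside the share of all tested genes. That share is not matched for level. The median listed gene had 5.83 to 6.15 FPKM per library, while the medians of the lists described below ran from 3.66 to 33.6 FPKM. Whether level had a part in the counts was not tested. Of 7 tested genes of the MYC family and the MLX branch, 1 rose and 0 fell, beside 8.02% higher and 5.46% lower among all tested genes. MLXIPL (ChREBP) had 1.26, 1.25 and 1.14 FPKM with the empty vector and 2.12, 1.99 and 1.63 with LINC00888, a log2 fold change of 0.49 ± 0.0952 (SE; limma adjusted p = 0.0256). Its call held when LINC00888 library 3 was left out and was lost without any other single library (adjusted p up to 0.0818). MLXIP (MondoA) had a mean of 5.18 against 5.06 FPKM and MYCL, a MYC paralog, 2.80 against 3.13, and neither passed.

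Of 7 tested targets of Mondo and MLX, 1 fell and 0 rose, beside 5.46% lower and 8.02% higher among all tested genes. Their median log2 fold change was 0.01. TXNIP, an arrestin-like protein that restrains glucose uptake and is the best known target of MLXIP with MLX, had 33.9, 33.4 and 34.3 FPKM with the empty vector and 22.6, 15.1 and 16.5 with LINC00888. All LINC00888 libraries lay below all empty vector libraries, and the log2 fold change was -0.91 ± 0.146 (SE; limma adjusted p = 0.0177). The call was lost when any empty vector library or LINC00888 library 3 was left out (adjusted p up to 0.0643). ARRDC4, its relative and another known target of the same pair, had a mean of 3.93 ± 0.239 against 3.91 ± 0.180 FPKM (SD, n = 3; limma adjusted p = 0.959).

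MYC targets of the nucleolus and ribosome assembly fell in 7 of 26 tested genes and rose in 0, beside 5.46% lower among all tested genes. Their median log2 fold change was -0.14, and 20 of 26 had a value below 0. Their median level, 16.7 FPKM, lay above that of all genes. The lower count was 2 or 3 when any 1 library was left out and 0 without both libraries numbered 1, and 1 gene was called higher under quantile normalization. RRS1, a ribosome assembly factor, had 42.7, 45.6 and 45.0 FPKM against 36.0, 34.8 and 34.5, a log2 fold change of -0.34 (limma adjusted p = 0.00667). NOP56, a core protein of box C/D particles that guide RNA methylation, had 32.1, 33.3 and 31.1 against 26.9, 27.1 and 26.2 FPKM, a log2 fold change of -0.26 (limma adjusted p = 0.0120). In both genes every LINC00888 library was lower. RRP9, a protein of the U3 particle, fell from a mean of 19.2 to 16.4 FPKM and BOP1, a factor of large subunit maturation, from 10.9 to 9.07. The call of RRP9 was lost without library 1 or 3 of the empty vector group, or 1 or 2 of the LINC00888 group (adjusted p up to 0.0635), and that of BOP1 without any single library (0.0533 to 0.0705).

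Metabolic MYC targets fell in 6 of 22 tested genes and rose in 0, beside 5.46% lower and 8.02% higher among all tested genes. Their median log2 fold change was -0.09, and their median level, 33.6 FPKM, lay above that of all genes. The lower count was 2 to 4 when any 1 library was left out and 0 without both libraries numbered 1. With quantile normalization, or without empty vector library 2 or 3, 1 gene was called higher. Of the 22 promoters 18 were matched, and 4 of these (22.2%) held CACGTG, beside 7.43% of all promoter windows. This share was 38.5% for cell cycle and translation targets and 8.33% for PRC1.6 genes. It was 6.25% for SIN3 and NCOR corepressors and 0 for the MYC family and MLX branch. All promoter windows include genes that were not tested here, so 7.43% is not a matched background. MYC binds CACGTG and the target lists hold known MYC targets, so their shares describe the lists and are not a result of these libraries. Metabolic targets with CACGTG were SRM at -199, SLC7A5 at -130, LDHA at -185 and -87, and PPAT at -182. LDHA and PPAT were not called (limma adjusted p = 0.329 and 0.604), and ODC1 and SLC3A2 lacked the motif in the window searched. Sequence outside that window, such as introns, was not searched. SRM, which makes spermidine, had 64.1, 65.0 and 62.6 FPKM against 49.8, 52.5 and 50.4, a log2 fold change of -0.33 (limma adjusted p = 0.00606). ODC1, the first enzyme of polyamine synthesis, had 139.8, 147.6 and 140.8 against 112.8, 116.9 and 116.4 FPKM, a log2 fold change of -0.31 (limma adjusted p = 0.00662). These polyamine enzymes were lower in every LINC00888 library. SLC3A2 and SLC7A5, the chains of the LAT1 amino acid transporter, fell from means of 29.05 to 25.0 FPKM and 36.5 to 31.3 FPKM. Pseudogenes of SLC7A5 may share its reads. SLC3A2 was no longer called without LINC00888 library 1 or 2 (adjusted p up to 0.0564), and SLC7A5 remained called only when empty vector library 2 was left out (otherwise up to 0.0594).

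Cell cycle and translation targets rose in 1 of 15 and fell in 0, beside 8.02% higher and 5.46% lower among all tested genes. Their median was -0.04, and 1 was called lower under median ratio scaling. TERT, the catalytic subunit of telomerase, rose from a mean of 1.09 ± 0.212 to 1.69 ± 0.0838 FPKM (SD, n = 3; limma adjusted p = 0.0389), a call that held only when empty vector library 3 was left out (otherwise up to 0.111). Genes that MYC is known to repress rose in 2 of 13 and fell in 0, beside 8.02% higher among all tested genes, with a median of 0.11. This balance turned with the processing: 1 was higher and 2 lower under median ratio scaling, 1 higher and 1 lower under quantile normalization, and 0 higher and 1 lower without empty vector library 2 or 3. Without any other single library, 0 were called in either direction. Of the 13 genes, 9 had a log2 fold change above 0 and 4 below 0. CDKN1A and CEBPD were lower in every LINC00888 library, from means of 19.6 to 16.3 FPKM and 7.59 to 6.03 FPKM. Neither was called in the fit as reported (limma adjusted p = 0.0728 and 0.0589). PDGFRB, a growth factor receptor of mesenchymal cells, rose from a mean of 0.308 to 0.650 FPKM (limma adjusted p = 0.0372), and THBS1, an inhibitor of blood vessel growth, from 51.8 to 59.5 FPKM (limma adjusted p = 0.0423). PDGFRB passed the filter of 0.5 FPKM only through the LINC00888 libraries (0.560 to 0.810 FPKM, against 0.238 to 0.352 with the empty vector). The filter thus favored a rise of PDGFRB, and its call adds no support to the count of this list. PDGFRB is also a fibroblast marker, and the summed fibroblast markers were 3.21 to 3.53 FPKM with the empty vector and 3.12 to 3.87 with LINC00888; their part in the result was not tested. The call of PDGFRB was lost without any single empty vector library (adjusted p up to 0.0944) and the gene fell below the filter without any single LINC00888 library, and the call of THBS1 was lost without any single library (up to 0.121).

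**Figure D4:**
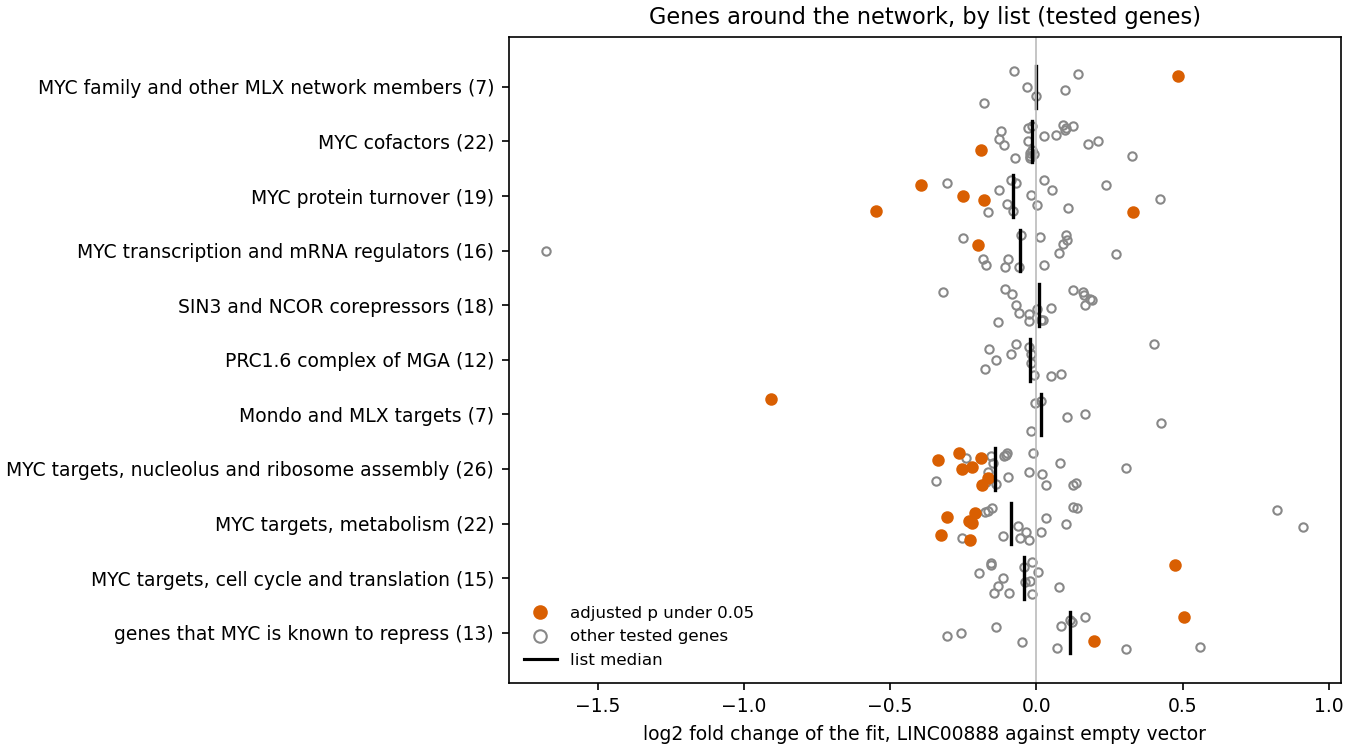
Log2 fold change of the fit, LINC00888 against empty vector, for each tested gene of 11 lists around the network; filled points have an adjusted p under 0.05 (limma), open points do not, black bars are list medians and the number of tested genes stands in parentheses. Nucleolus targets had a median of -0.14 with 7 of 26 genes lower, and the genes that MYC is known to repress had a median of 0.11 with 2 of 13 higher. Of these 13, 9 had a log2 fold change above 0 and 4 below 0, and PDGFRB, 1 of the 2 called, passed the filter only through the LINC00888 libraries.

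Genes that act on MYC itself were described in the same way. Among 19 tested genes of MYC protein turnover 4 fell and 1 rose, beside 13.5% called in either direction among all tested genes, with a median of -0.08. Leaving out 1 library gave 1 to 3 lower and 0 to 2 higher, and 0 were called without both libraries numbered 1. PLK1, a mitotic kinase that stabilizes MYC proteins, had 14.7, 15.6 and 15.4 FPKM against 9.62, 11.4 and 9.78, a log2 fold change of -0.55 (limma adjusted p = 0.00890), lower in every LINC00888 library. AURKA, a kinase that protects MYCN from degradation, fell from a mean of 28.0 to 23.5 FPKM, and STUB1, a ubiquitin ligase, from 27.5 to 20.9 FPKM. SKP2, a ubiquitin ligase subunit for MYC, rose from 7.45 to 9.46 FPKM. PLK1 and STUB1 both lie on chromosome 16 (deposited positions 23688977 to 23701688 and 730224 to 732870). Whether position had a part in their lower levels was not tested. AURKA was lost without any LINC00888 library (adjusted p up to 0.0539), STUB1 without any empty vector library or LINC00888 library 1 (up to 0.0739), and SKP2 without any library but empty vector library 1 (up to 0.115).

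Few cofactors, regulators and corepressors passed the test. Of 22 tested MYC cofactors 1 fell, beside 5.46% lower among all tested genes, while 3 were lower under median ratio scaling and 0 under quantile normalization. CDK9, the elongation kinase, went from a mean of 21.2 to 18.5 FPKM (limma adjusted p = 0.0353), a call lost without any single library (0.0677 to 0.104). Of 16 regulators of MYC transcription and mRNA 1 fell (6.25%), near the 5.46% lower among all tested genes. HNRNPK, a nucleic acid binding protein with processed pseudogenes that may share its reads, went from 129.9 to 113.0 FPKM (limma adjusted p = 0.0116). Of 18 SIN3 and NCOR corepressor genes limma called 0, with 2 at an unadjusted p under 0.05, a level reached by 31.2% of all tested genes. SAP30 had the smallest p, with a mean of 18.6 against 14.8 FPKM (limma adjusted p = 0.0677). Of 12 PRC1.6 genes it called 0, with 2 at an unadjusted p under 0.05, beside the same 31.2%. Quantile normalization called 1 higher in each of these lists, as did leaving out empty vector library 1 for PRC1.6, where median ratio scaling called 1 lower. CBX3 had the smallest p, with 64.6 against 58.6 FPKM (limma adjusted p = 0.0628).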

How the data were processed

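Strand-specific libraries of polyA RNA from 6 samples (3 per group) were read as paired ends for 150 cycles. Tools named in the submitters' processing notes are HISAT2, StringTie, cutadapt and FastQC, with no versions given. The same notes give the mouse build GRCm38, although the identifiers are human. Of the gene identifiers 11717 carry the suffix of GENCODE mapped to GRCh37, the build of the deposited positions is not stated, and whether strand was used in counting is not given in the sources used here. Values are FPKM per the file headers, computed by the authors for each library. Each deposited feature reached a group mean of 0.5 FPKM in 1 or both groups. All columns of values were mapped to a sample by name.

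The filter kept 11726 genes and 26941 transcripts that reached 0.5 FPKM in 3 or more of 6 libraries. These were compared on log2(FPKM + 0.5) with limma 3.58.1 in R 4.3.3 (trend and robust, two-sided, Benjamini-Hochberg over all features), a scale that understates changes of low genes. The procedure was tested on simulated data. Transcript shares and sums were compared with exact permutation tests in scipy 1.17.1. Transcripts were matched to GENCODE 29 and promoters to RefSeq by identifier or symbol. From each list up to 4 called genes with the smallest p were named, or the 1 with the smallest p where none passed, and for likeness to MYC the 5 genes with the highest correlation. MYCL, MLXIP, ARRDC4, CDKN1A and CEBPD were named outside this rule, after their values were seen. The members and lists were chosen with earlier results of these data known. Promoter shares of lists with under 80% of genes matched are void and not given.

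Alternatives were pseudocounts of 0.1 and 1, quantile normalization, median ratio scaling, a filter at 1 FPKM or none, plain eBayes, a block on the replicate number, leaving out each library, and, chosen after seeing the data, leaving out both libraries numbered 1.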

Additional observations from a re-analysis of the deposited data

How the results depend on the processing

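As reported, limma called 1581 genes (941 higher, 640 lower), 1 member gene, 102 transcripts and 0 member transcripts. Other pseudocounts, filters, scalings and eBayes settings called 1336 to 1601 genes, 79 to 107 transcripts and the same member gene, MXD4, but median ratio scaling moved the split to 751 higher and 850 lower and the median log2 fold change of all genes from 0.03 to -0.00. Leaving out 1 library gave 536 to 815 genes and 22 to 45 transcripts, and MXD4 was called each time. Without both libraries numbered 1, limma called 72 genes, 0 member genes, with 2535 genes at an unadjusted p under 0.05, and 0 transcripts, with 1744. Deviations from the group mean over all tested genes correlated at 0.0377, 0.0222 and -0.0347 between the libraries numbered 1, 2 and 3. Pairs of unlike number ran from -0.0816 to 0.0587. These values cannot show whether single genes share a pattern by number, as MYC and ZBED6 did in the libraries numbered 1. A shared batch was not tested. With the number as a replicate block limma called 429 genes and 0 member genes (MXD4 adjusted p = 0.0543). It called 0 transcripts, with 2362 at an unadjusted p under 0.05. The log2 fold change of MXI1, 0.01 as reported, was -0.0010 with a pseudocount of 0.1, -0.028 with median ratio scaling, -0.0078 with quantile normalization, -0.17 without both libraries numbered 1, and -0.25 to 0.48 without 1 library, and that of MLX was -0.16 to 0.11 without 1 library. Of 20 called genes named in the text, 7 kept their call without any 1 library (MXD4, PLK1, HNRNPK, RRS1, NOP56, SRM and ODC1), 15 lost it under the block and 18 without both libraries numbered 1. In that last fit only TXNIP kept its call, since PDGFRB fell below the filter and was not tested. Quantile normalization ended the calls of CDK9, TERT and PDGFRB, plain eBayes those of CDK9 and THBS1, and median ratio scaling that of THBS1, while CBX3 passed under median ratio scaling. The cause was not tested. Depth is unknown, so the precision of low FPKM values, such as those of the rarer transcripts, cannot be given.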
